A study of Mus musculus with 18 samples.

Results

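The genes described here carry the Wnt signal inside the cell: Ctnnb1, Apc, Axin1, Axin2, Gsk3a, Gsk3b, Tcf7, Tcf7l1, Tcf7l2 and Bcl9. They were chosen by name, and their peaks were taken as those overlapping any of their annotated exons by at least 1 bp on the mouse build GRCm38 (mm10), or as the rows carrying their symbols in the authors' final lists. These are 10 of the 15965 genes with an exonic peak in any of the 7 library lists. The study mapped N6-methyladenosine (m6A), a methyl mark on adenosines of RNA, by sequencing RNA fragments pulled down with an antibody to it (m6A-seq). Embryoid bodies (EB), aggregates in which stem cells differentiate, had 3 libraries (A, B and C). They were grown from BVSC embryonic stem cells for 8 to 21 days without attachment in serum medium. Mettl3 knockout (Mettl3-KO) embryonic stem cells had 1 library, labelled a negative control, and Mettl3 is the enzyme that writes most m6A on mRNA. BVSC embryonic stem cells (ESC) had 3 libraries (A, B and C). The labels give 1 growth protocol for stem cells, in serum-free medium with LIF, 1 to 3 μM of the GSK3 inhibitor CHIR99021 and 1 μM of the MEK inhibitor PD0325901. The knockout's label gives neither the parental line nor the number of clones, so line and genotype cannot be told apart against BVSC ESC. Embryonic fibroblasts (MEF), cultured from E13.5 embryos, entered through the authors' final MEF list. All groups are labelled C57BL/6.

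The peak lists held 12364 to 21509 peaks in EB, 2043 in Mettl3-KO and 10515 to 19816 in ESC. A list gives positions with no height and no read count, so sequencing depth is unknown, and neither the amount of RNA nor the stoichiometry of the mark can be read from it. A missing peak therefore does not show that a transcript was unmethylated. In these bulk samples, fewer cells of a type and less RNA per cell cannot be told apart. Mettl3 exons had 0 bp under peaks in Mettl3-KO and in each EB and ESC library, so this gene does not check the knockout label. The lists as a whole did differ in where peaks lay. In Mettl3-KO, 79.7% of all mRNA peaks were centred within 200 nt of the transcript start, and 1.69% within 200 nt of the stop codon. In ESC these shares were 14.5 ± 5.73% and 25.6 ± 3.39% (SD, n = 3). The knockout had 1 library, and the cause of this difference was not tested. Of 8 pluripotency markers, 5 to 7 had a peak in each EB library, 6 in Mettl3-KO and 5 to 7 in each ESC library. Of 7 endoderm markers, 5 or 6 had one in each EB library, 0 in Mettl3-KO and 2 to 4 in each ESC library. Of 6 mesoderm markers, 2, 4 and 1 had one in EB A, EB B and EB C, and 0 in Mettl3-KO and in each ESC library. Of 4 neural markers, 2 or 3 had one in each EB library and likewise in each ESC library, and 0 in Mettl3-KO. ESC B stood apart on 8 fibroblast markers, with peaks on 6 of them, against 1 in ESC A and 2 in ESC C. The EB libraries had peaks on 6, 6 and 3 of these, Mettl3-KO on 0, and Col3a1 had none in any of the 7 libraries.

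Without a Wnt signal, the scaffolds Axin and Apc hold beta-catenin, the product of Ctnnb1, beside the kinases Gsk3a and Gsk3b, which phosphorylate it for degradation. With the signal, or with Gsk3 inhibited, beta-catenin accumulates, enters the nucleus and joins the TCF proteins and the co-activator Bcl9 on target genes. In mouse embryonic stem cells, CHIR99021 inhibits both Gsk3 kinases, and beta-catenin relieves the repression of pluripotency genes by Tcf7l1. The m6A mark sits in a short sequence motif named DRACH, of which GGAC is a frequent core, and is known to be dense in long exons and around stop codons.

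Merging the peaks of the 7 libraries gave 37 regions on these genes, of which 10 had a peak in all 6 EB and ESC libraries and 2 had a peak in Mettl3-KO. The sequences below come from 6 regions with a peak in all 6 EB and ESC libraries and from 1 region of Tcf7 with a peak in EB A and EB B only. Each was read from GRCm38 on the transcript strand at the GGAC that lay under the peaks of the most EB and ESC libraries, and the capitals mark GGAC. In the first 6 sequences that GGAC lay under a peak in all 6 libraries. The stretches lie in coding sequence or in untranslated regions (UTRs).
Ctnnb1, coding side of the stop codon region, chr9:120959413-120959492 plus strand: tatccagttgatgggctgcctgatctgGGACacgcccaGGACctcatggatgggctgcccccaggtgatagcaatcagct
Axin1, exon 2 coding region, chr17:26143167-26143246 plus strand: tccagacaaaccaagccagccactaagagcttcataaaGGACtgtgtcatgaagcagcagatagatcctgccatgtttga
Axin1, exon 6 coding region, chr17:26187847-26187926 plus strand: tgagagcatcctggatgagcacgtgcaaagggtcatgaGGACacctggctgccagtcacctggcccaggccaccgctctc
Bcl9, exon 8 coding region, chr3:97210189-97210268 minus strand: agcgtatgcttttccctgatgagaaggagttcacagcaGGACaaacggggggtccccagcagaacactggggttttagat
Gsk3b, 5′ UTR region, chr16:38089654-38089683 plus strand: ccgggcacagcgcGGACacttcccgagcag
Tcf7l1, 5′ UTR region, chr6:72789137-72789166 minus strand: gttccgtgctgcgGGACgattcggagccga
Tcf7, 3′ UTR region of EB A and EB B, chr11:52253841-52253870 minus strand: ccccagctccccaGGACtcaccctcgtatc

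The 2 regions with a knockout peak are shown separately, as the 30 bases at the centre of the Mettl3-KO peak. Neither stretch holds GGAC, and so neither has capitals. The exonic part of the knockout peak on Ctnnb1, 132 of its 140 bp, held 0 GGAC and 0 DRACH matches. The whole knockout peak on Gsk3b held 0 GGAC and 2 DRACH matches. The Gsk3b GGAC shown above crosses the downstream end of that knockout peak, so it is not counted within it. Within 50 nt of the peak centre, 1 of the 2 knockout peaks, that on Gsk3b, had GGAC. Over all mRNA peaks of Mettl3-KO this share was 41.7%.
Ctnnb1, centre of the knockout peak, 5′ UTR, chr9:120933562-120933591 plus strand: acggtgggcgccgagccgtcagtgcaggag
Gsk3b, centre of the knockout peak, 5′ UTR, chr16:38089611-38089640 plus strand: caaggaggagccggccttgcagccgctgac

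Ctnnb1, which encodes beta-catenin, had a peak in all 7 libraries. The exonic bases under its peaks were 724, 837 and 707 bp in EB, 132 bp in Mettl3-KO and 749, 545 and 636 bp in ESC. ESC A lay within the EB values, so EB and ESC overlapped. Its peaks formed 4 regions. The first, chr9:120933465-120933667, lay in the 5′ UTR with its centre 166 nt from the transcript start, and had a peak in all 7 libraries and a row in all 3 final lists. Of the 10 regions with a peak in all 6 EB and ESC libraries it was the only one without GGAC in its exonic part, which held no DRACH match either. The second recurrent region, chr9:120959313-120959785, spanned the stop codon in the last exon of 1199 nt and held 3 GGAC, of which the sequence above shows 2. A region in the 3′ UTR, centred 428 nt past the stop codon, had a peak in 3 of 3 EB libraries and in ESC A and ESC C. A coding region in exon 13 had a peak in EB B only.

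The peak over the Ctnnb1 stop codon was 454, 456 and 441 bp wide in EB, against 405, 388 and 363 bp in ESC. Each EB peak was wider than each ESC peak, and the means were 450.3 ± 8.1 bp in EB and 385.3 ± 21.1 bp in ESC (SD, n = 3 each). The exact two-sided permutation test gave p = 0.1, the smallest that 3 against 3 allows, and an adjusted p of 0.669 over the 5165 regions, over every gene, that all 6 libraries marked. The upstream ends lay within 20 nt of each other, 185 to 201 nt before the end of the stop codon in EB and 197 to 204 nt before it in ESC. The downstream ends lay 268, 255 and 239 nt past it in EB, against 200, 188 and 165 nt past it in ESC. Taking as width the bases under a library's peaks in a region, 12.7% of all 5165 regions were wider in every EB library and 2.25% narrower in every EB library. Of the 10 recurrent regions of the Wnt genes, 1 was wider in every EB library and 0 were narrower, a share near the background. With each width divided by its library's median, 0 of the 10 stood apart, beside 5.21% wider and 8.36% narrower over all regions, so the call rests on widths as given. Leaving out EB C brought the count to 3, beside 44.7% of all regions, and leaving out ESC A brought it to 3, beside 20.6%, with 1 region of Apc and 1 of Bcl9 joining each time. In the other direction, leaving out EB A gave 1 region narrower in every EB library, beside 3.74% of all regions, and leaving out ESC C gave 1, beside 6.29%. This comparison of widths was chosen after the data were seen. In the authors' final lists the Ctnnb1 stop codon peak was 451 bp wide in EB, 185 bp in MEF and 405 bp in ESC. Widths over all rows of these lists were not compared.

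**Figure D1:**
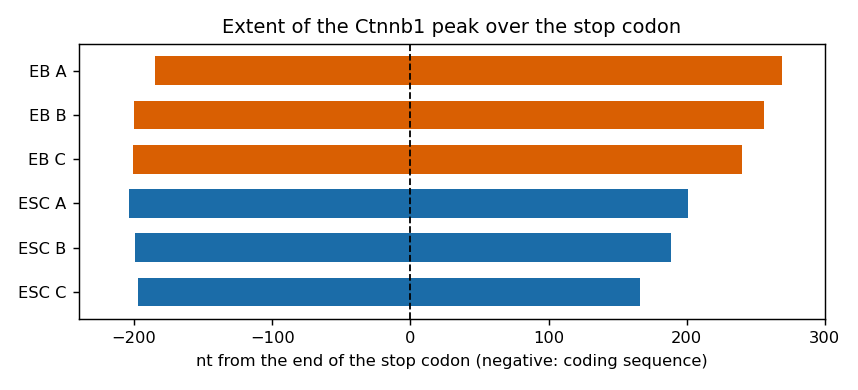
Extent of the Ctnnb1 peak over the stop codon in each EB (orange) and ESC (blue) library, in nt from the end of the stop codon (dashed line), with coding sequence on the left. The 3 EB peaks end 239 to 268 nt past the stop codon and the 3 ESC peaks 165 to 200 nt past it.

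Apc, the large scaffold of the destruction complex, lay on chromosome 18 and had the most bases under peaks in every EB library. Its cover was 2086, 1882 and 1128 bp in EB, 0 bp in Mettl3-KO and 1098, 775 and 1264 bp in ESC. EB C fell between ESC A and ESC C, so the groups overlapped, and without EB C or without ESC C they did not. Of its 10 regions, 9 lay in the last exon of 10548 nt, which holds most of the coding sequence, and no region was centred in a UTR. A peak in all 6 EB and ESC libraries was found in 3 regions, centred 4136, 1326 and 346 nt before the end of the stop codon. A further 5 regions had peaks in EB only, in 1 or 2 of the 3 libraries, and 1 had a peak in ESC C only. The final lists held 4 rows for Apc in EB, 8 in MEF and 3 in ESC, and the MEF rows included regions that EB A and EB B also showed.

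Axin1, a scaffold of the destruction complex, had 928, 1007 and 764 bp under peaks in EB, 0 bp in Mettl3-KO and 940, 836 and 600 bp in ESC. The groups overlapped. Both of its recurrent regions were coding and had a peak in all 6 EB and ESC libraries and a row in all 3 final lists. The region in exon 2, chr17:26142737-26143504, lay in an exon of 959 nt and held 4 GGAC. The region in exon 6, chr17:26187745-26188105, lay in an exon of 518 nt and held 2 GGAC. A further region, over the stop codon, had a peak in EB A only.

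Axin2, a scaffold that is also a target gene of the pathway, had 314, 546 and 270 bp under peaks in EB, 0 bp in Mettl3-KO and 247, 249 and 963 bp in ESC. ESC C was the highest library and the other ESC libraries the lowest, so the SD in ESC (413 bp) was close to the mean (486 bp, n = 3). No Axin2 region had a peak in all 6 libraries. The coding region in exon 2, with 6 GGAC, had a peak in EB A, EB B, ESC A and ESC C, and the authors listed it in the MEF and ESC lists. The 3′ UTR region, centred 274 nt past the stop codon, had a peak in 3 of 3 EB libraries and in ESC B and ESC C, and stood in the EB and ESC lists.

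Gsk3b and Gsk3a, the paralogous kinases that CHIR99021 inhibits, each had 1 region, in the 5′ UTR, and differed in how often it was found. Gsk3b had 378, 495 and 356 bp under peaks in EB, 86 bp in Mettl3-KO and 401, 372 and 296 bp in ESC, with overlapping groups. Its region, chr16:38089506-38090013, was centred 695 nt from the transcript start in a first exon of 1613 nt, held 4 GGAC and stood in all 3 final lists. The 3′ UTR of Gsk3b, at 5515 nt the longest part of that mRNA, held no peak in any of the 7 libraries.

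Gsk3a had 195, 173 and 140 bp under peaks in EB, 0 bp in Mettl3-KO and 0, 174 and 0 bp in ESC. Every EB library had the peak, and of the ESC libraries only ESC B did, at a width within the EB range. ESC B had the longest of the ESC lists and the peaks on fibroblast markers given above, and their part in this result was not tested. Without ESC B, the EB values did not overlap the 2 remaining ESC values, which were both 0 bp. The region, chr7:25237633-25237839, was centred 117 nt from the transcript start, and its only GGAC, 90 nt upstream of that centre, lay under the EB A peak and no other. The authors' final lists held it in EB only.

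Tcf7l1, the TCF protein that acts mainly as a repressor in mouse embryonic stem cells, had the smallest SD of cover among the 10 genes in both EB and ESC. Its cover was 133, 140 and 127 bp in EB, 0 bp in Mettl3-KO and 142, 140 and 111 bp in ESC, with means of 133 ± 6.5 bp in EB and 131 ± 17.3 bp in ESC (SD, n = 3 each). All of it came from 1 region in the 5′ UTR, chr6:72789069-72789220, centred 112 nt from the transcript start. Although present in all 6 libraries, it stood in none of the 3 final lists. Of 4273 protein-coding genes with a peak in all 6 libraries, 376 (8.8%) likewise had no row in any final list.

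Tcf7 and Tcf7l2, TCF proteins that bind beta-catenin on target genes, were found in fewer libraries. Tcf7 had 470, 190 and 0 bp in EB, 0 bp in Mettl3-KO and 143, 102 and 0 bp in ESC. Its peaks were centred in the 3′ UTR. The region nearer the stop codon, centred 81 nt past it, had a peak in EB A and EB B, and the EB B peak reached back into coding sequence. The region centred 526 nt past the stop codon had a peak in EB A, ESC A and ESC B. Tcf7l2 had 173, 302 and 0 bp in EB, 0 bp in Mettl3-KO and 0, 192 and 307 bp in ESC. Its 3′ UTR region had a peak in EB B, ESC B and ESC C. Its other region, chr19:55741834-55742016, lay in an exon outside the canonical transcript and had a peak in EB A, EB B and ESC C. Among the EB and ESC libraries, EB C, which had the shortest EB list, was at 0 bp for both genes, ESC C for Tcf7 and ESC A for Tcf7l2. The authors' final lists held 1 row for each, in ESC only.

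Bcl9, the co-activator that bridges beta-catenin to the transcription machinery, had 1333, 1308 and 864 bp under peaks in EB, 0 bp in Mettl3-KO and 336, 1188 and 808 bp in ESC. ESC B lay within the EB values, and ESC A, with 1 peak, was the lowest EB or ESC library. Leaving out ESC B or EB C ended the overlap. Of its 10 regions, 1 had a peak in all 6 EB and ESC libraries, the coding region in exon 8, chr3:97209940-97210392, which held 7 GGAC. The coding region in the last exon, centred 304 nt before the end of the stop codon, had a peak in every EB library and in ESC B and ESC C. The final lists held 2 rows in EB, 0 in MEF and 3 in ESC.

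**Figure D2:**
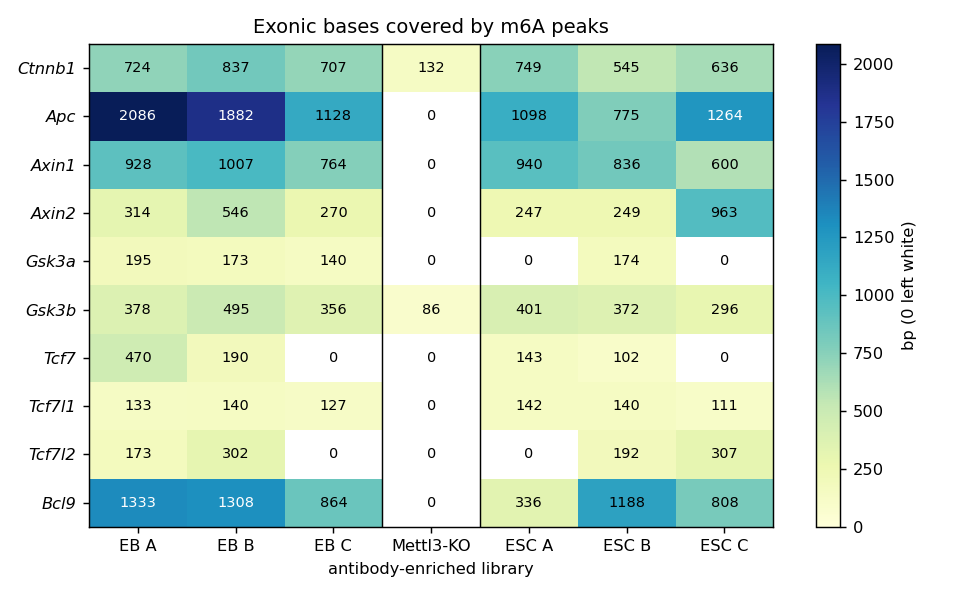
Exonic bases under peaks, in bp, for each of the 10 genes (rows) in each library (columns: EB, Mettl3-KO, ESC), with cells at 0 bp in white. The knockout column holds values for Ctnnb1 (132 bp) and Gsk3b (86 bp) only.

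A peak was found on 10, 10 and 8 of the 10 genes in EB, against 8, 10 and 8 in ESC (9.33 ± 1.15 in EB and 8.67 ± 1.15 in ESC, SD, n = 3 each). This difference was smaller than the spread between libraries. A peak in all 6 EB and ESC libraries was found on 7 of the 10, beside 28.4% of the genes with a peak in any of them. Summed over the 10 genes, peaks covered 6734, 6880 and 4356 exonic bp in EB, against 4056, 4573 and 4985 bp in ESC. The groups overlapped through EB C. As a share of all exonic bases under peaks in a library, this was 0.140 ± 0.0128% in EB and 0.134 ± 0.0246% in ESC (SD, n = 3 each).

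The cover of each gene was compared between EB and ESC by an exact two-sided permutation test over 15897 genes with Benjamini-Hochberg adjustment. None of the 10 genes had EB and ESC values that did not overlap. Over all genes, 6.01% had every EB library above every ESC library and 1.52% had every EB library below. Exact p-values of the 10 genes lay between 0.2 and 1, and the adjusted p was 1 for each. The smallest exact p that 3 against 3 allows is 0.1, so 0 genes of the 15897 fell under 0.05 before adjustment. The EB mean was above the ESC mean for 8 of the 10 genes, with Axin2 and Tcf7l2 the exceptions, beside 59.2% of all genes tested. The median difference, EB minus ESC, was 109.5 bp for the 10 genes and 28.67 bp for all genes tested, on the scale of bp, which long transcripts can raise more.

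The count depended on single libraries. Without EB C, 3 genes had higher cover in every EB library than in any ESC library (Apc, Tcf7 and Bcl9), beside 22.9% of all genes. Without ESC A there was 1 (Ctnnb1), beside 7.49%. Without ESC B there were 2 (Gsk3a and Bcl9), beside 12.9%, and without ESC C also 2 (Apc and Axin2), beside 8.16%. Without EB A or EB B the count was 0, and none of the 10 genes was lower in every EB library under any of these.

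Of the 37 regions, 23 had peaks in both EB and ESC, 12 in EB only and 2 in ESC only, which is 62.2%, 32.4% and 5.41%. Over the 35395 regions of every gene merged the same way, 46.1% had peaks in both, 29.2% in EB only and 24.6% in ESC only. No region was present throughout 1 group and absent throughout the other. The 12 found in EB only had a peak in 1 library (9 regions) or 2 libraries (3 regions: 2 in Apc and 1 in Tcf7). Of these 12, Apc held 5 and Bcl9 held 4. The 2 found in ESC only, 1 in Apc and 1 in Axin2, both had their peak in ESC C alone. The centres of 21 regions were in coding sequence, 5 in the 5′ UTR, 10 in the 3′ UTR and 1 outside the canonical transcript. Exons longer than 400 nt held 32 of the regions, and 9 of the 10 regions present in all 6 libraries. The exception was the 5′ UTR region of Ctnnb1, in a first exon of 239 nt.

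**Figure D3:**
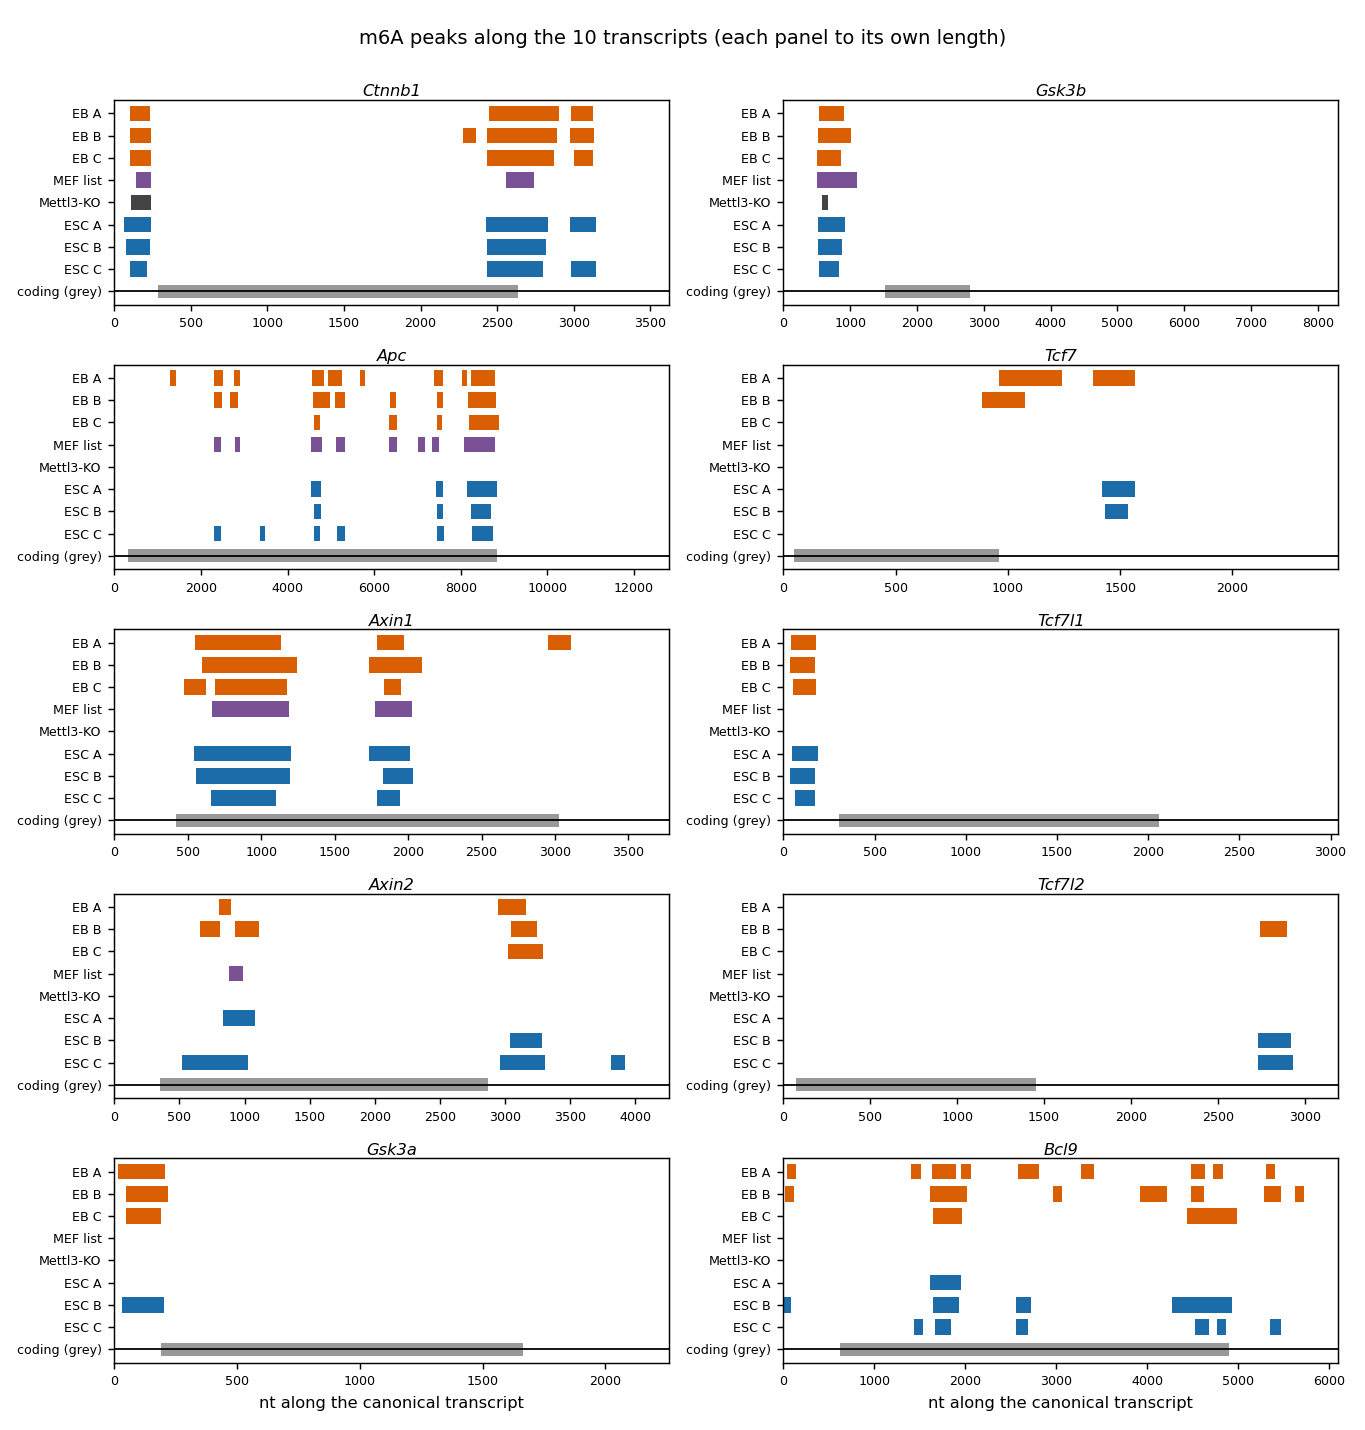
Peaks of each library and rows of the authors' final MEF list along the canonical transcript of each gene, in nt from its start, with the coding sequence as a grey bar. EB is orange, the MEF list purple, Mettl3-KO dark grey and ESC blue. Gsk3a, Gsk3b and Tcf7l1 hold peaks centred in the 5′ UTR only, Apc peaks are centred in coding sequence, and the Tcf7l2 region outside this transcript is not drawn.

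Peaks centred within 200 nt of the stop codon made up 11.9 ± 4.52% of these genes' mRNA peaks in EB and 7.42 ± 1.43% in ESC (SD, n = 3 each). Over all mRNA peaks this share was 23.3 ± 2.00% in EB and 25.6 ± 3.39% in ESC. Each library held only 1 to 5 such peaks of the 10 genes, and no test was made over the genes. With 100 nt in place of 200 nt the difference between EB and ESC changed sign. Coding sequence held 58.2% of these genes' peaks in EB and 59.9% in ESC, beside 55.3% of all mRNA peaks in EB and 50.8% in ESC. Exons longer than 400 nt held 91.1% in EB and 92.1% in ESC, beside 79.2% of all mRNA peaks in EB and 84.0% in ESC. Apc and Bcl9 gave 20 of the 37 regions, so these shares rest largely on 2 long transcripts.

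Within 50 nt of the peak centre, GGAC was present on the transcript strand in 51.8 ± 4.66% of these genes' peaks in EB and 51.9 ± 12.7% in ESC (SD, n = 3 each). Over all mRNA peaks it was present in 54.7 ± 3.47% in EB and 56.3 ± 2.45% in ESC. Of all windows of 101 nt along the 10 transcripts, 30.9% held it (151 of 489), beside 33.2% of the windows along every canonical mRNA with a peak. In the whole region rather than the window, GGAC was present in 9 of the 10 regions found in all 6 libraries and in 4 of the 11 found in 1 library. The regions found in all 6 libraries were 152 to 787 bp long, and those in 1 library 95 to 299 bp.

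The knockout list held a peak on 2 of the 10 genes, Ctnnb1 and Gsk3b. Of the 7 genes that every ESC library marked, the knockout list marked 2, beside 19.9% over the 5156 genes that every ESC library marked (1026 genes). The Ctnnb1 peak, chr9:120933507-120933646, was 140 bp wide with its centre 176 nt from the transcript start. The Gsk3b peak, chr16:38089583-38089668, was 86 bp wide with its centre 624 nt from the transcript start. Both lay in the 5′ UTR and inside regions with a peak in every EB and ESC library. Of all mRNA peaks in Mettl3-KO, 55.3% were centred in the 5′ UTR, so this place is common in the knockout list. The other 35 regions, that over the Ctnnb1 stop codon among them, had none.

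A knockout peak overlapped 2 of 13 peaks of these genes in ESC A, 2 of 17 in ESC B and 2 of 23 in ESC C, counting peaks on the canonical mRNAs. This was 6 of 53 peaks over the 3 libraries, with a mean of 11.95 ± 3.35% per library, against 6.34 ± 1.56% of all mRNA peaks (SD, n = 3). In the 5′ UTR it was 6 of 11 peaks (57.8 ± 15.4%), beside 29.2 ± 6.19% of all 5′ UTR peaks. In coding sequence it was 0 of 32 and in the 3′ UTR 0 of 10, beside 4.92 ± 1.30% of all coding and 0.159 ± 0.0396% of all 3′ UTR peaks. The 6 overlaps are the same 2 sites seen in 3 libraries. With 1 knockout library there is no replicate check, and the knockout peaks were also narrower, at a median of 98 bp, against 162 to 229 bp in ESC.

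**Figure D4:**
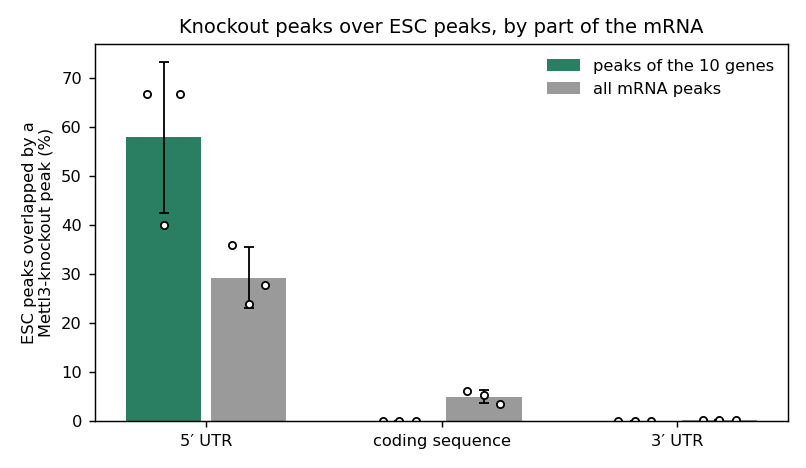
Share of ESC peaks overlapped by a Mettl3-KO peak, in percent, by the part of the mRNA that holds the peak's centre, for the 10 genes (green) and for all mRNA peaks (grey). Bars are means over 3 ESC libraries, error bars are SD and circles are the libraries. The 10 genes show overlaps in the 5′ UTR and none in coding sequence or the 3′ UTR.

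The authors' final lists, 1 per cell type, held 13 rows on 7 of the 10 genes in EB, 14 rows on 5 in MEF and 16 rows on 8 in ESC. Of the genes with a peak in any EB or ESC library, 33.1% were listed in EB, 31.2% in MEF and 38.1% in ESC. Ctnnb1, Apc, Axin1, Axin2 and Gsk3b stood in all 3 lists. Gsk3a was listed in EB only, Tcf7 and Tcf7l2 in ESC only, Bcl9 in EB and ESC, and Tcf7l1 in none. Of the 10 regions with a peak in all 6 libraries, the EB list overlapped 9, the MEF list 8 and the ESC list 9. Over the 5165 such regions of all genes, the EB list overlapped 90.6%, the MEF list 78.7% and the ESC list 92.3%. The MEF list missed the regions of Tcf7l1 and Bcl9. These lists have no replicates, so no test was made between them.

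The pattern of presence over the 7 libraries was compared with that of every other gene. Ctnnb1 and Gsk3b shared presence in all 7 with 923 genes in all, among them Csnk1a1, Ctbp2, Nanog and Esrrb of the Wnt list below. Apc, Axin1, Axin2, Tcf7l1 and Bcl9 were present in the 6 EB and ESC libraries and not in Mettl3-KO, a pattern of 3586 genes. The pattern of Gsk3a (EB A, EB B, EB C and ESC B) was that of 284 genes, among them Dvl1, Dact3 and Ctnnbip1. That of Tcf7l2 was shared by 530 genes, among them Tnks and Rnf43, and that of Tcf7 by 104, none of them on the list.

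A list of 56 other Wnt genes held 21 that act in the cytoplasm, 21 in the nucleus and 14 targets. Of these, 21 had a peak in all 6 EB and ESC libraries and 3 had none (Dvl2, Amer2 and T). Every EB library was above every ESC library for 3 of the 56 and below for 1, shares near the 6.01% and 1.52% of all genes. Their values are given as a description. Myc, a growth-promoting transcription factor, had 448, 852 and 422 bp in EB, against 142, 0 and 340 bp in ESC. Macf1, a cytoskeletal linker, had 2629, 3255 and 2283 bp in EB, against 717, 1524 and 2179 bp in ESC. Esrrb, a pluripotency factor that Tcf7l1 represses, had 1072, 1027 and 1105 bp in EB, against 985, 975 and 739 bp in ESC. Cdx1, a caudal-type homeobox gene induced by Wnt, had 0 bp in each EB library, against 204, 251 and 478 bp in ESC. Each had the smallest exact p, 0.1, and an adjusted p of 1 in the permutation test over all genes.

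Knockout peaks lay on 6 of the 56: Csnk1a1 (casein kinase 1 alpha, which primes beta-catenin for Gsk3) with 135 bp, Dvl3 (a Dishevelled adaptor) with 148 bp, and Ctbp2 (a corepressor) with 79 bp, and the targets Ccnd1 with 141 bp, Nanog with 294 bp and Esrrb with 82 bp. Of the 23 that every ESC library marked, 4 had one, a share near the 19.9% of all such genes. Csnk1a1 had 1265, 1269 and 1221 bp in EB, 135 bp in Mettl3-KO and 1414, 1298 and 1125 bp in ESC. The bases under its knockout peak were thus few beside those in the other libraries. The same held for Ctnnb1, with 132 bp against 545 to 749 bp in ESC. It did not hold for all of the 6 genes. Dvl3, at 148 bp in Mettl3-KO, had 0, 212 and 243 bp in ESC, and Ccnd1, at 141 bp, had 0, 179 and 137 bp. Nanog, at 294 bp, had 632, 681 and 499 bp in ESC, and Ctbp2, at 79 bp, had 327, 374 and 659 bp.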

How the data were processed

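The files used are lists of peak positions that the authors deposited, 1 for each of 7 libraries and a final list for each of 3 cell types. They give positions without a score. The submitters' processing notes name MACS 1.4.1, TopHat2 2.0.10, CASAVA 1.8.2 and build mm10. Peak names in the library lists carry a different MACS label, so the version used is not settled. Thresholds, and how replicates were joined in the final lists, are not given in the sources used here. MEF libraries and read counts were not analysed here. Exons came from GENCODE M21 (basic set) and sequence from GRCm38. Peaks were assigned without strand by an overlap of at least 1 bp, and places were taken on 1 canonical transcript per gene. EB and ESC were compared over libraries by the exact permutation test, with Benjamini-Hochberg adjustment over all genes, after tests on simulated data. The 3 replicates are biological per the labels. Tools were pysam 0.24.0, SciPy 1.17.1, NumPy 2.4.6 and Python 3.11.15. The members, lists and rules were chosen with earlier results of these data known. Named were all 10 genes and, of the other Wnt genes, those not overlapping between EB and ESC, with a knockout peak or with a member's pattern of presence other than presence in all 6 EB and ESC libraries; the 3 without a peak in these were named after their values were seen. The start base of the MEF list could not be checked, so its positions may be off by 1 nt.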

Additional observations from a re-analysis of the deposited data

How the results depend on the processing

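Of 59 alternatives, 45 kept the direction of the result and moved it by less than the spread between libraries, or a count by less than 1.5 times. The difference in the number of genes with a peak, EB minus ESC, ranged over 0.333 to 1.33 around 0.667, and that in the share near stop codons over 2.40 to 6.89 percentage points around 4.50 in these 45. Leaving out 1 library moved the number of genes with cover not overlapping between EB and ESC over 0 to 3, and the number of regions wider in every EB library over 1 to 3. The number of regions narrower in every EB library moved over 0 to 1. The correlation of deviations between the EB and ESC libraries of a letter was -0.124 for A, 0.333 for B and 0.0972 for C. Whether the replicate letters pair the samples was not tested, and EB B and ESC B were each the longest list of their group. With a replicate block, EB above ESC within every letter, the number of genes was 1 (Bcl9), beside 14.2% of all genes. The block left the difference in the number of genes with a peak and that in the share near stop codons the same. With 1 EB and 1 ESC library for each letter these means cannot change, so neither is a check. Both are counted among the 45 above. Scaling widths by the library median, an alternative chosen after seeing the data like the leave-outs of the widths, gave 0 regions. Where a knockout peak had to cover at least 50% of the ESC peak, the overlapped share was 5.974%. Within 100 nt of the stop codon in place of 200 nt, the share in EB minus ESC was -0.809 percentage points. GGAC was present in 37.9% of the genes' peaks within 25 nt and in 74.5% within 100 nt, and DRACH in 84.5% within 50 nt; wider windows and looser motifs match more often. Within 200 nt of the transcript start, 3 of 8 ESC peaks of these genes (37.5%) were overlapped by a knockout peak, and within 100 nt there was 1 such peak, not overlapped. The cause of the other changes was not tested. Positions carry no height and depth is unknown, so the lists cannot show a change of level within a peak, and 3 against 3 libraries cannot give a p below 0.1.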

Other observations

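Peaks between the ends of a gene that touched none of its exons were outside the rule on exons. Tcf7l1 had 1 intronic peak, in ESC C, which lay in an exon of Gm15401. Bcl9 had 2 such peaks, both in ESC A, the ESC library with the fewest exonic Bcl9 bases (336 bp). They lay within the annotated span of the gene but upstream of the start of its canonical transcript, so not in an intron of that transcript. Nothing was found in introns of the other 8 genes in the 7 libraries.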
